A study of Mus musculus with 24 samples.

Results

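The copper response of *Brd9* KD myoblasts was measured in 4 of the 24 RNA-seq libraries of the study, 2 from cells cultured with 100 µM CuSO4 for 48 h (Cu) and 2 from untreated cells of the same line. The libraries were chosen by the condition in the sample titles, which the columns of the count table repeat, because a separate treatment tag in the labels contradicts those titles. All cells were C2C12, an established line of mouse myoblasts, kept proliferating after transduction with a lentivirus that expresses a short hairpin RNA (shRNA) and selection with puromycin, so that treated and untreated groups alike carried the hairpin against *Brd9*. The labels describe the cells as primary myoblasts, and the description in the study's methods is used here. Both replicates of a group were independent biological replicates. The other conditions used here are the 2 *Brd9* KD libraries with 50 µM ZnSO4 for 48 h (Zn), which entered the same fit, and the Cu-treated and untreated libraries of the scrambled hairpin control (scr), *Baf180* KD and *Baf250a* KD lines, with 2 libraries each.

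Copper is a cofactor of cytochrome oxidase, superoxide dismutase and lysyl oxidase, and in excess it reacts with thiols and drives the formation of reactive oxygen species. Cells answer such stress through NRF2, a transcription factor that is released from KEAP1 when cysteines of KEAP1 are modified and that activates genes of glutathione, thioredoxin, NADPH and heme metabolism through antioxidant response elements. A separate metal sensor, MTF1, binds metal response elements and activates the metallothioneins, small cysteine-rich proteins that chelate zinc and copper, and the zinc exporter *Slc30a1*. *Brd9* is a bromodomain subunit found only in the noncanonical BAF form (ncBAF) of the SWI/SNF chromatin remodelling enzymes.

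The study's list of hairpins gives a pair of sequences against *Brd9*, shown here because they define the cell line. Each is written as the 21 bases of the transcript that it matches, in lower case, 5′ to 3′.
shRNA1: tggactttggcacgatgaaag
shRNA2: caccgaatggtgtccaataag
The first lies in the coding part of exon 5 of 16 of the transcript Brd9-201, on the + strand at chr13:73940726-73940746 (GRCm38), and the second in the 3′ untranslated part of exon 16, at chr13:73960500-73960520. Each matched transcripts of *Brd9* and of no other gene in the GENCODE M21 annotation, 8 transcripts for the first and 6 for the second. The sources used here do not say which hairpin the sequenced cells carried.

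Total counts were 24081727 and 28759670 in the Cu libraries, 18547233 and 13994335 in the untreated and 22026644 and 12719173 in the Zn libraries, within a range of 495778 to 75179394 over the series. Expression is given in CPM (edgeR's counts scaled to library size, with TMM factors over the 6 *Brd9* KD libraries unless stated otherwise). Scaled over all 24 libraries, *Brd9* was at 13.8 to 17.6 CPM in the *Brd9* KD libraries (median 16.3), below all libraries of scr (26.7 to 31.7, median 29.5), *Baf180* KD (36.0 to 45.2) and *Baf250a* KD cells (33.5 to 53.6). On the scale of the 6 libraries, *Brd9* was at 14.2 and 15.6 CPM with Cu and at 18.1 and 17.8 without, and this difference did not pass the test (log2 fold change -0.27, SE 0.15, edgeR adjusted p = 0.384). All 7 markers of myoblasts were above 1 CPM in each of the 6 libraries (scaled over all 24), with a summed level of 2163 to 2281 CPM with Cu and 2216 to 2407 without. Of markers of other cells, 2 of 8 for fibroblasts (*Pdgfra* and *Cd34*), 1 of 7 for macrophages (*Cd68*) and none of the 6 each for endothelium, fat and epithelium were above 1 CPM in all 6 libraries. The fibroblast sum was 60.4 to 62.9 CPM with Cu and 47.0 to 58.0 without, with *Lum* at 0, and the macrophage sum was 3.93 to 4.91 with Cu and 3.54 to 4.86 without, with *C1qa* at 0. In bulk samples fewer cells of a type and less RNA per cell cannot be told apart.

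Replicate 1 of the Cu group stood apart. It held 11092 CPM of *CT010467.1*, a gene model with ribosomal RNA sequence, against 1497 in replicate 2 and 1033 to 1413 in the other *Brd9* KD libraries (scaled over all 24 libraries). Its *Lars2* level, 421 CPM against 29.5 in replicate 2, was raised alongside, with *Gm15564* and *Mir6236*. The counts of genes called below are therefore also given without it. The fold changes also followed base composition: across 12001 protein-coding genes, which are not independent replicates, Spearman's rho of the log2 fold change was 0.376 with GC content and -0.256 with length, so counts are also given from a fit in which each library has an offset for both.

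Copper raised 26 genes and lowered 15 in *Brd9* KD cells, of 14978 genes tested (0.274% called, 0.174% higher and 0.1% lower; edgeR's quasi-likelihood test, adjusted p under 0.05). The genes that rose included the prolactin-like hormone gene *Prl2c3*, which had the largest fold, and the detoxifying enzymes *Gsta4* and *Aldh3a1*, and held 11 of 33 tested targets of NRF2. Those that fell included the anoctamin gene *Ano5*, the matrix protein gene *Fndc1*, the growth factor binding protein gene *Igfbp5* and the imprinted noncoding RNA *H19*. Most changes were small: 5 of the 26 rose and 6 of the 15 fell at least 2-fold. In each of the 41 genes both Cu libraries lay on the same side of both untreated libraries, which was also so for 25.8% of all genes tested upwards and 26.7% downwards. The 41 were selected on these same libraries, so the shares are no yardstick for them. DESeq2 called 197 genes (102 higher, 95 lower; 1.85% of 10677), among them all 41, and a fit with a GC and length offset gave 116 (0.774%), among them 38. For DESeq2, shares of genes tested refer throughout to genes left with an adjusted p after its own filtering, here 10677. No gene was called by edgeR against a minimum fold change of 1.5 (227 at an unadjusted p under 0.05) or without replicate 1 of Cu (1772 at an unadjusted p under 0.05). In the fit without that library the 26 genes had log2 fold changes of 0.46 to 1.84, the 15 of -1.57 to -0.50, and the median over all genes was -0.00. Since the genes were selected with both Cu libraries, the signs in this fit follow largely from the selection.

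**Figure D1:**
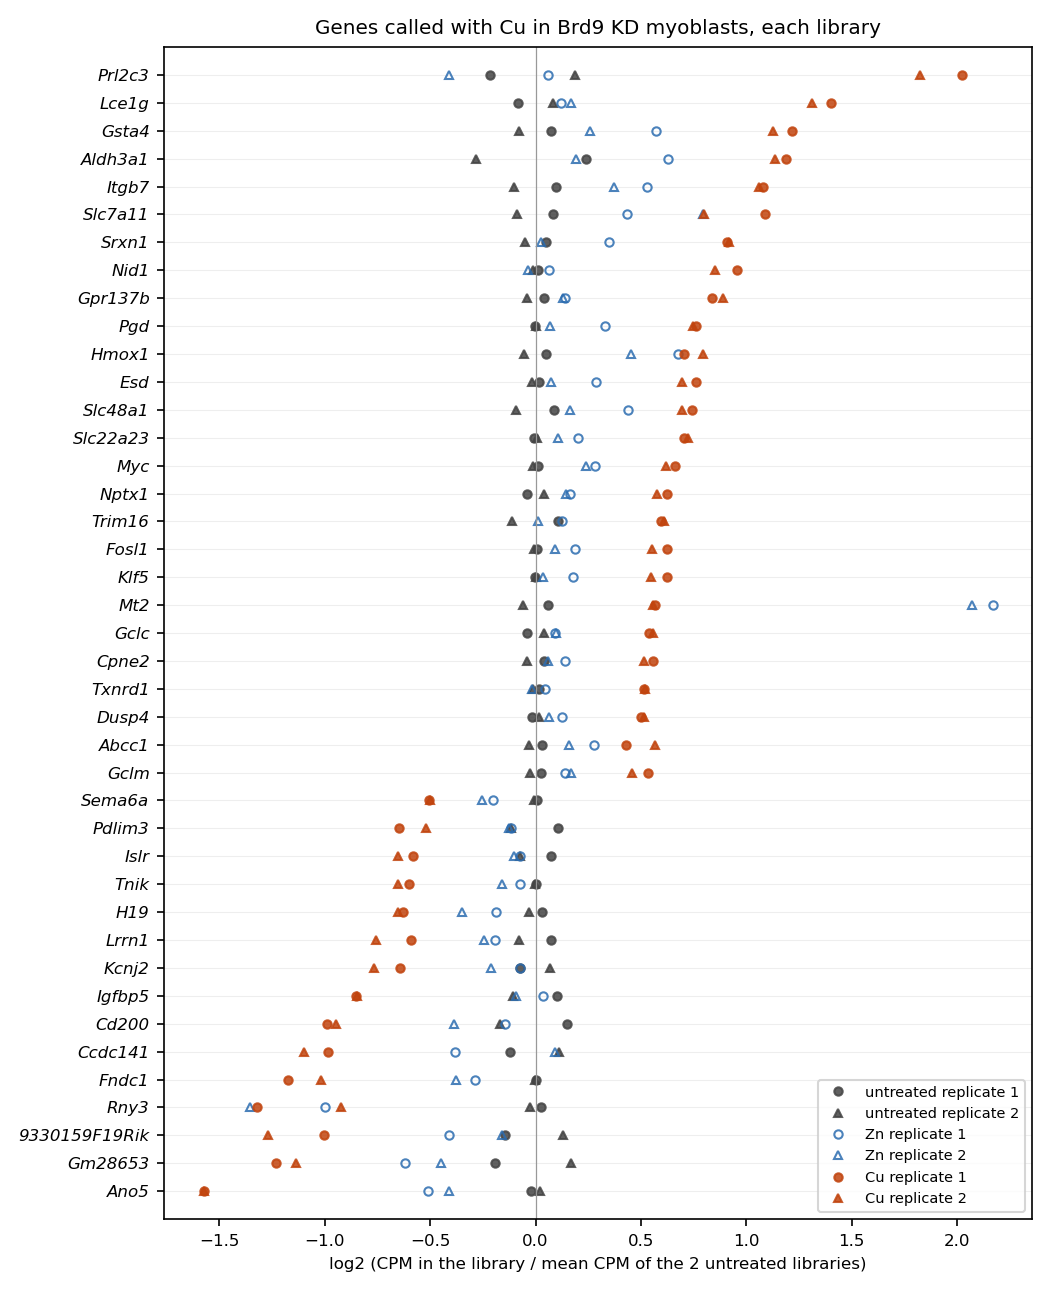
The 41 genes called with Cu in Brd9 KD cells, one line each. The x axis is the log2 ratio of a library's CPM to the mean of the untreated libraries, with circles for replicate 1 and triangles for replicate 2 (red Cu, black untreated, open blue Zn). In all 41 lines both red points lie to one side of both black points, and the Zn points of Mt2 lie beyond those of Cu.

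**Figure D2:**
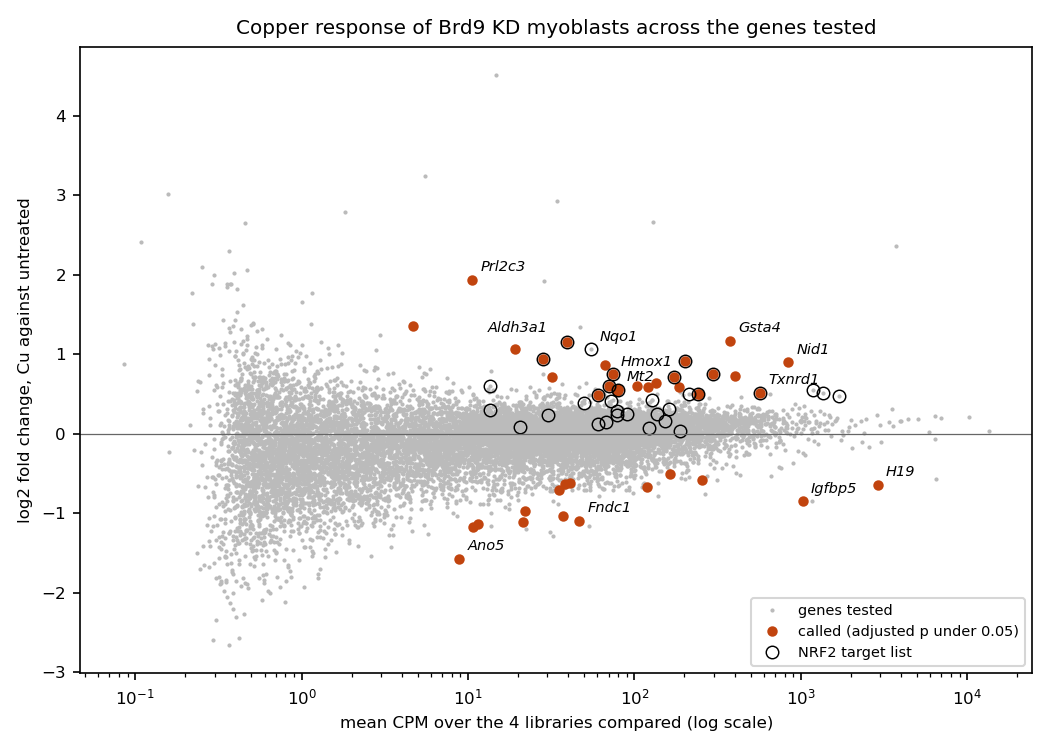
Log2 fold change of Cu against untreated (y axis) by mean CPM over the 4 libraries (x axis, log scale) for the 14978 genes tested. Red points are the 41 called genes, and open black circles the 33 tested NRF2 targets, all of which lie above 0.

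The NRF2 target list was the group with the most called members. Of its 34 genes 33 were tested, 11 rose and none fell, against 0.174% of all genes called higher. Both Cu libraries were above both untreated libraries in 29 of the 33 (25.8% of all genes), 4 overlapped, and the median log2 fold change was 0.47 against -0.01 over all genes. DESeq2 called 18 higher (0.955% of all genes it tested) and the fit with the GC and length offset 15 (0.441% of all genes higher, 0.334% lower), and without replicate 1 of Cu the median was 0.46 with 32 of 33 above 0. The transcripts of the factor itself and its inhibitor were not called by edgeR: the log2 fold change was 0.07 for *Nfe2l2* (SE 0.09, adjusted p = 0.738) and 0.13 for *Keap1* (SE 0.09, adjusted p = 0.458).

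In glutathione synthesis, the importer of its precursor and both subunits of its first enzyme rose. The cystine importer *Slc7a11* was at 40.8 and 33.4 CPM with Cu and at 20.3 and 18.1 without, and rose by 0.95 on the log2 scale (SE 0.15, edgeR adjusted p = 0.0492). *Gclc*, the catalytic subunit of the ligase that joins cysteine to glutamate, was at 94.3 and 95.6 CPM against 63.2 and 66.9 (log2 fold change 0.55, SE 0.07, adjusted p = 0.0283). *Gclm*, its modifier subunit, was at 72.9 and 69.2 CPM against 51.3 and 49.6 (0.49, SE 0.08, adjusted p = 0.0497). The Cu libraries were above the untreated ones in all 3, and the log2 fold change was largest for *Slc7a11*, whose Cu replicates also lay furthest apart.

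Of genes that act on glutathione or its conjugates, *Gsta4*, *Abcc1* and *Esd* rose. *Gsta4*, which conjugates aldehydes from lipid peroxidation to glutathione (chr9:78182774-78209349), was at 536 and 503 CPM with Cu and at 242 and 218 without, a 2.25-fold rise (log2 fold change 1.17, SE 0.11, edgeR adjusted p = 0.00533). Both Cu libraries of *Gsta4* were above both untreated libraries, by much more than the replicates of either group differed. *Abcc1*, an exporter of glutathione conjugates, was at 268 and 295 CPM against 203 and 195 (log2 fold change 0.50, SE 0.08, adjusted p = 0.0479). *Esd*, which hydrolyses S-formylglutathione, was at 514 and 490 CPM against 307 and 299 (0.73, SE 0.08, adjusted p = 0.0162). Of 18 tested glutathione S-transferases, *Gsta4* was the 1 called (0.174% of all genes called higher), and 10 had both Cu libraries above both untreated ones (25.8% of all genes). The median log2 fold change was 0.31, and 0.17 without replicate 2 of Cu. *Gstm1* was at 68.3 and 70.6 CPM against 50.5 and 43.7 without passing the test (0.56, SE 0.11, adjusted p = 0.0906).

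In the thioredoxin system, *Srxn1*, which repairs overoxidised peroxiredoxins, was at 263 and 265 CPM with Cu and at 145 and 135 without, a 1.88-fold rise (log2 fold change 0.91, SE 0.10, edgeR adjusted p = 0.0146). *Txnrd1*, the cytosolic thioredoxin reductase, was at 667 and 669 CPM against 471 and 462 (0.52, SE 0.07, adjusted p = 0.0238). Replicates of a group lay close together in both genes and the groups did not overlap. These were the 2 called of 29 tested thioredoxin, peroxiredoxin and peroxidase genes (0.174% of all genes called higher), whose median log2 fold change was 0.14. NADPH, which both systems consume, is made in the pentose phosphate pathway, where *Pgd*, its second dehydrogenase, was at 377 and 373 CPM against 222 and 223 (0.75, SE 0.09, adjusted p = 0.0175). *G6pdx*, the first dehydrogenase, was at 251 and 246 CPM against 184 and 168 without passing the test (0.50, SE 0.11, adjusted p = 0.143). *Pgd* was the 1 called of 20 pentose phosphate and NADPH genes (0.174% of all genes called higher).

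Among genes of iron and heme handling, 2 that act on heme rose with Cu. *Hmox1*, the inducible heme oxygenase, was at 90.0 and 96.0 CPM with Cu and at 57.3 and 53.3 without (log2 fold change 0.75, SE 0.10, edgeR adjusted p = 0.0238). *Slc48a1*, which carries heme out of lysosomes, was at 218 and 211 CPM against 138 and 122 (0.72, SE 0.10, adjusted p = 0.0303). The ferritin chains that store the released iron were higher in both Cu libraries but did not pass the test, *Fth1* at 0.51 (SE 0.09, adjusted p = 0.0586) and *Ftl1* at 0.47 (SE 0.09, adjusted p = 0.0886). *Hmox1* and *Slc48a1* were the 2 called of 29 tested iron and heme genes, and 4 were called higher by DESeq2 (0.174% of all genes by edgeR and 0.955% by DESeq2).

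The remaining called members were *Aldh3a1*, an aldehyde dehydrogenase at 55.5 and 53.6 CPM with Cu against 28.8 and 20.0 (2.22-fold; log2 fold change 1.15, SE 0.18, edgeR adjusted p = 0.0437), and *Trim16* at 84.1 and 84.8 against 59.9 and 51.5 (0.60, SE 0.09, adjusted p = 0.0479). *Nqo1*, the quinone reductase that is a standard readout of NRF2, was at 73.6 and 75.3 CPM with Cu and at 39.7 and 31.3 without, a 2.09-fold difference. It missed the edgeR threshold (1.06, SE 0.17, adjusted p = 0.0524) and passed it in DESeq2 (adjusted p = 7.72e-07). *Sqstm1*, a receptor of selective autophagy that binds KEAP1, stood at 0.55 (SE 0.09, adjusted p = 0.0524). Both *Nqo1* and *Sqstm1* had the Cu libraries above the untreated ones.

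Antioxidant response elements were looked for in the RefSeq promoters of GRCm38.p6 (250 bases before to 50 after a transcription start), as TGACNNNGC on both strands. The motif was in 12.4% of 32851 such windows and in the promoters of 16.8% of 10136 tested genes with a window, of 5 of 13 matched genes called higher (38.5%) and of 2 of 10 called lower (20%). Among tested NRF2 targets 10 of 25 held it (40%). Promoters of 3 called genes of the thioredoxin and glutathione systems are shown with the match in capitals, written 5′ to 3′ on the gene's strand.
Gclm, chr3:122245307-122245606, + strand: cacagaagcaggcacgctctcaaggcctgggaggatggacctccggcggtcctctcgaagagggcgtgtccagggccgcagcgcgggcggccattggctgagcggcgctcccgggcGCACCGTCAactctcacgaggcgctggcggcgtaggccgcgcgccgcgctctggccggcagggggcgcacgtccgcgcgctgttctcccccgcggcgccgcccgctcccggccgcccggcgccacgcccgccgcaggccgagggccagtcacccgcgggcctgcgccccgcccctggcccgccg
Srxn1, chr2:152105274-152105573, + strand: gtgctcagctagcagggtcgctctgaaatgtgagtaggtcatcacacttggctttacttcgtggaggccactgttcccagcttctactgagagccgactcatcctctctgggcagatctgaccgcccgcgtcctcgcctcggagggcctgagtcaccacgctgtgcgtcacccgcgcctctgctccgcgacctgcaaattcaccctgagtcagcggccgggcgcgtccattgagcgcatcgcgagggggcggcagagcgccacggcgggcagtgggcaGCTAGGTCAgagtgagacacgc
Txnrd1, chr10:82858956-82859255, + strand, a start inside the gene: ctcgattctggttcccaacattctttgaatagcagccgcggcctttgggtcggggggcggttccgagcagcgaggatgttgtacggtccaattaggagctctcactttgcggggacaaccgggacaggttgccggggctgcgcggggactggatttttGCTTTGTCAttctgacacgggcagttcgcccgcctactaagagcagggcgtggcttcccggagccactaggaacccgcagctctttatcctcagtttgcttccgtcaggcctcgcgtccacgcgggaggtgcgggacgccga
The match starts 134 bases before the start of transcription in *Gclm*, 92 before in *Txnrd1* and at base 28 after it in *Srxn1*, on the opposite strand in all 3. A match is a description of the letters and not a measured binding site. The 13 other genes that rose have no entry among the promoters used.

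**Figure D3:**
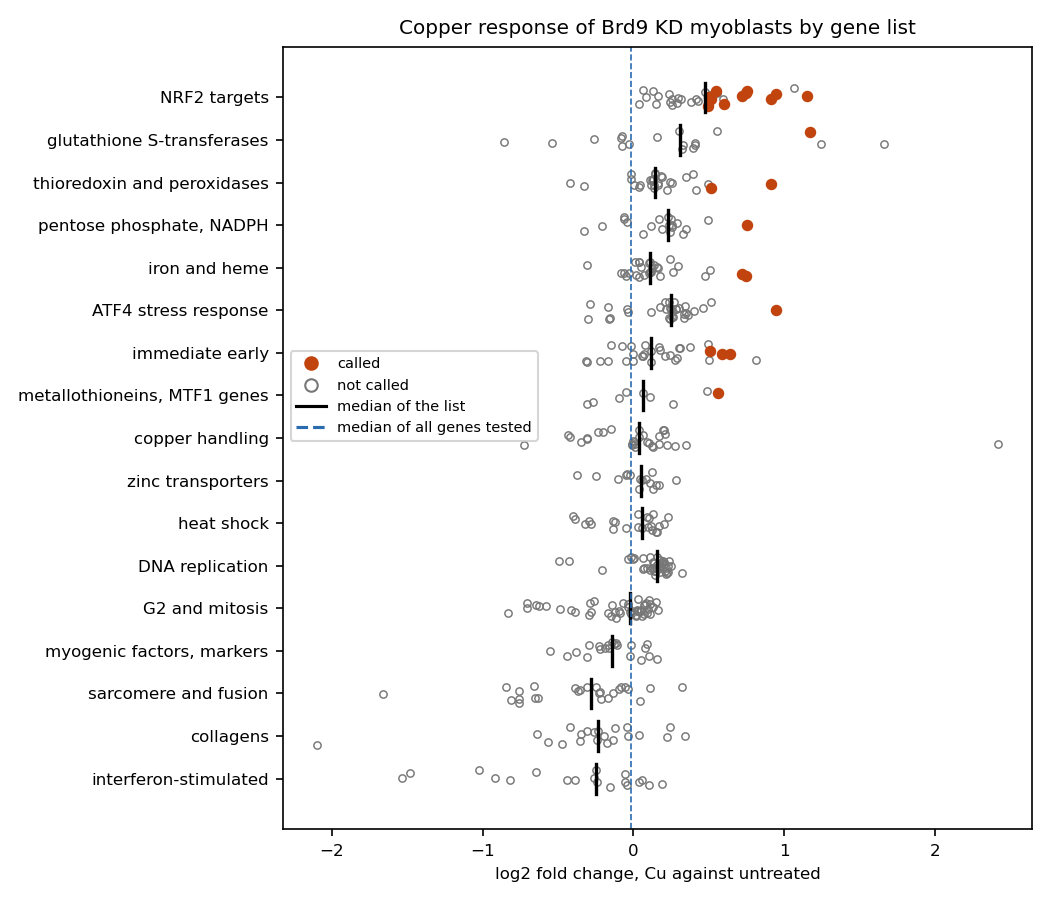
Log2 fold change of Cu against untreated for the tested members of 17 gene lists (open, not called; red, called). Black bars are list medians and the dashed blue line the median of all genes, at -0.01. The NRF2 list has the most red points, and its median is at 0.47.

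Metallothionein transcripts were higher with Cu, and by less than with Zn. *Mt2* (chr8:94172664-94173568) was at 95.5 and 94.8 CPM with Cu, at 67.1 and 61.7 without and at 289 and 270 with Zn. It rose 1.48-fold with Cu (log2 fold change 0.56, SE 0.08, edgeR adjusted p = 0.0283). *Mt1* was at 224 and 235 CPM with Cu, at 170 and 157 without and at 510 and 457 with Zn, and its difference with Cu missed the threshold (0.49, SE 0.08, adjusted p = 0.0524). For both genes the 3 conditions did not overlap and stood in the order untreated, Cu, Zn. Set directly against Zn, Cu gave less of both, by -1.56 on the log2 scale for *Mt2* (SE 0.08, adjusted p = 0.00012) and -1.07 for *Mt1* (SE 0.08, adjusted p = 0.00242). The zinc exporter *Slc30a1*, at 16.9 and 18.2 CPM with Cu and 17.0 and 15.4 without, did not pass the test (0.11, SE 0.11, adjusted p = 0.614). *Mt2* was the 1 called of 9 tested metallothionein and zinc-responsive genes (0.174% of all genes called higher), whose median was 0.06, or 0.03 without replicate 1 of Cu.

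The promoters of the metallothionein pair are shown with the letters of the metal response element core in capitals (TGCACNC or TGCGCNC, both strands).
Mt2, chr8:94172368-94172667, + strand: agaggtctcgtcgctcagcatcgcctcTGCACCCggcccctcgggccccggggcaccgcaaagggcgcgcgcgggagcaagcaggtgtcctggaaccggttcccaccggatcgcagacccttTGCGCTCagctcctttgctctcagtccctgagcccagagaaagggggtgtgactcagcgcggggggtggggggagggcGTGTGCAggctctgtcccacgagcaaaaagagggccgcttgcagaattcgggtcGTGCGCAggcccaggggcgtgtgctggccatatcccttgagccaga
Mt1, chr8:94178839-94179138, + strand: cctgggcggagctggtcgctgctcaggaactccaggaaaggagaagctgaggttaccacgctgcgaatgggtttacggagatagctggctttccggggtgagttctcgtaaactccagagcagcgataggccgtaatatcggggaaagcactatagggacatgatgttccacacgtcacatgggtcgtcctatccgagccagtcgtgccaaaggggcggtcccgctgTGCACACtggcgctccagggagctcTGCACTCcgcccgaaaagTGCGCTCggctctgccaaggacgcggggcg
*Mt2* held 4 matches, the first starting 223 bases before the start of transcription and the last at base 4 after it, and *Mt1* held 3, from 23 bases before to base 20. The motif is common: it was in 25.7% of all windows, in the promoters of 40.8% of tested genes with a window, of 7 of 13 matched genes called higher (53.8%) and of 5 of 10 called lower (50%). In *Mt2* the letters TGACTCAGC, starting 79 bases before the start, hold both an antioxidant response element and the AP-1 motif TGANTCA, which overlap there. The AP-1 motif was in 7.81% of windows and in 3 of the 13 matched genes called higher (23.1%).

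No gene that transports or uses copper passed edgeR's test. Of 37 listed genes 31 were tested and 8 had an unadjusted p under 0.05 (16.2% of all genes). Both Cu libraries were above the untreated ones in 9 and below in 9 (25.8% and 26.7% of all genes), and the median log2 fold change was 0.04. *Slc31a1*, the copper importer Ctr1, was at 75.0 and 78.3 CPM with Cu and at 79.4 and 72.6 without (log2 fold change 0.01, SE 0.10, edgeR adjusted p = 0.962). *Atp7a*, the copper-exporting ATPase, was at 33.8 and 32.3 CPM against 43.6 and 44.9 (-0.42, SE 0.10, adjusted p = 0.144). *Cox17*, the chaperone that delivers copper to cytochrome oxidase, was at 12.8 and 13.4 CPM against 20.9 and 22.4 (-0.72, SE 0.12, adjusted p = 0.0524). Cu libraries overlapped untreated ones in *Slc31a1* and lay below them in *Atp7a* and *Cox17*, and DESeq2 called *Cox17* (adjusted p = 0.00689). Of 23 tested heat shock chaperones and 19 tested genes of lipoylation and pyruvate dehydrogenase, none was called by edgeR or DESeq2. An unadjusted p under 0.05 was found for 1 and 2 of them, against 16.2% of all genes.

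Genes of growth signalling were among those that rose. *Myc* was at 168 and 163 CPM with Cu and at 107 and 105 without (log2 fold change 0.64, SE 0.07, edgeR adjusted p = 0.0132), and *Fosl1*, an AP-1 subunit, at 228 and 217 against 149 and 147 (0.59, SE 0.07, adjusted p = 0.0193). *Dusp4*, a phosphatase of MAP kinases, was at 286 and 289 CPM against 200.1 and 205 (0.51, SE 0.07, adjusted p = 0.0238). All 3 belong to the immediate early list, of which 31 were tested and 7 were called higher by DESeq2 (0.174% of all genes by edgeR and 0.955% by DESeq2). *Klf5*, a transcription factor outside the lists, was at 148 and 140 CPM against 95.9 and 96.2 (0.59, SE 0.08, adjusted p = 0.026). In these 4 genes replicates lay close together and the groups were apart. Of the ATF4 stress response list *Slc7a11* was the 1 called of 32, with a median of 0.25, and 5 were called higher by DESeq2, to be read against the same shares.

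Outside these groups, *Nid1*, which encodes the basement membrane linker nidogen-1, was at 1135 and 1057 CPM with Cu and at 591 and 580.2 without (1.87-fold; log2 fold change 0.90, SE 0.08, edgeR adjusted p = 0.00533). *Itgb7*, an integrin chain, was at 26.0 and 25.7 CPM against 13.2 and 11.5 (1.07, SE 0.12, adjusted p = 0.0133). *Prl2c3*, of the proliferin group of prolactin-like hormones, had the largest fold, 3.83, at 17.9 and 15.6 CPM against 3.80 and 5.03 (1.94, SE 0.20, adjusted p = 0.0101). *Lce1g*, a cornified envelope gene, was low throughout, at 6.89 and 6.48 CPM against 2.46 and 2.76 (1.36, SE 0.19, adjusted p = 0.0303). The groups did not overlap in any of the 4. *Nptx1*, *Cpne2*, *Slc22a23* and *Gpr137b*, the other genes called higher, had log2 fold changes of 0.53 to 0.86.

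*Nid1*, *Gpr137b* and *Prl2c3* lie near one another on chromosome 13, which is described after their values were seen. *Nid1* (chr13:13437551-13512269) starts 43537 bases from the end of *Gpr137b* (chr13:13357620-13394014), and *Prl2c3* (chr13:12790816-12800079) is 557541 bases from *Gpr137b*. Between them, *Prl2c2* stood at 1.77 on the log2 scale (SE 0.36, edgeR adjusted p = 0.0936) and *Prl2c5* at 0.93 (adjusted p = 0.336), both below 2 CPM in all 4 libraries. The pseudogene *Gm2423*, also between them, stood at 0.23 (adjusted p = 0.736) with overlapping groups. Prl2c genes are near-identical copies, so uniquely mapped reads divide uncertainly among them. The pseudogene *Gpr137b-ps* stood at 0.63 (adjusted p = 0.059).

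Among the genes that fell, *Ano5* had the largest fold, and the abundant transcripts *Igfbp5* and *H19* fell by less. *Igfbp5*, a secreted binding protein of insulin-like growth factors, was at 731 and 733 CPM with Cu and at 1412 and 1224 without, 1.80-fold lower (log2 fold change -0.85, SE 0.09, edgeR adjusted p = 0.0132). *H19* was at 2281 and 2245 CPM against 3600 and 3454 (-0.64, SE 0.09, adjusted p = 0.0303). These were the 2 called of 22 growth factor and oncofetal genes (0.1% of all genes called lower), and *Hmga2*, another of them, stood at 0.46 (SE 0.08, adjusted p = 0.0586). *Fndc1* was at 28.1 and 31.3 CPM against 63.6 and 63.4, 2.13-fold lower (-1.09, SE 0.09, adjusted p = 0.00533). *Ano5*, whose loss causes muscular dystrophy, fell most, 2.97-fold, from 13.05 and 13.4 to 4.45 and 4.46 CPM (-1.57, SE 0.14, adjusted p = 0.00533). The Cu replicates were nearly equal in *Igfbp5* and *Ano5*, and no group overlapped in these genes.

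Of other genes that fell, *Cd200*, a surface glycoprotein, was at 14.7 and 15.1 CPM with Cu and 32.3 and 25.9 without (log2 fold change -0.97, SE 0.13, edgeR adjusted p = 0.0289), and *Ccdc141* at 25.4 and 23.6 against 46.4 and 54.4 (-1.04, SE 0.15, adjusted p = 0.033). *Islr*, a matrix-associated immunoglobulin superfamily protein, was at 33.2 and 31.6 CPM against 52.2 and 47.1 (-0.62, SE 0.09, adjusted p = 0.0303). *Pdlim3*, which binds alpha-actinin at Z-discs, was at 196 and 214 CPM against 330.0 and 283 (-0.58, SE 0.09, adjusted p = 0.0414). *Kcnj2*, the inward rectifier potassium channel of muscle, was at 28.0 and 25.7 CPM against 41.6 and 45.9 (-0.70, SE 0.10, adjusted p = 0.0303). Cu libraries were below untreated ones in all 5. The other genes that fell, *Sema6a*, *Lrrn1*, *Tnik* and the transcripts *9330159F19Rik* and *Gm28653*, had log2 fold changes of -1.17 to -0.50. *Pdlim3*, *Kcnj2* and *Tnik* were no longer called with the GC and length offset. *Postn*, the matricellular protein periostin, was at 36.9 and 29.5 CPM against 69.4 and 78.3, 2.22-fold lower without passing the test (-1.15, SE 0.20, adjusted p = 0.0586).

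Lists of muscle genes had no member called by edgeR. Of 26 tested genes of sarcomere, contraction and fusion, both Cu libraries were below both untreated ones in 15 and above in none (26.7% and 25.8% over all genes). An unadjusted p under 0.05 was found for 9 (16.2% of all genes), and the median log2 fold change was -0.28. *Ryr1*, the calcium release channel, was at 12.1 and 13.8 CPM with Cu and at 21.02 and 22.9 without (-0.76, SE 0.13, edgeR adjusted p = 0.053), and *Tnnt1*, slow troponin T, stood at -0.81 (SE 0.16, adjusted p = 0.093). DESeq2 called 1 lower (0.89% of all genes it tested) and the fit with the offset 3 (0.334% of all genes). Of 21 tested myogenic factors and myoblast markers, 11 were below and 4 above and 7 had an unadjusted p under 0.05, against the same shares. Their median was -0.14. Among them *Myod1*, the master regulator of the lineage, was at 77.3 and 75.3 CPM against 95.1 and 92.0 (-0.29, SE 0.08, adjusted p = 0.204).

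*Rny3*, a Y RNA that binds the Ro60 protein, was at 11.8 and 15.5 CPM with Cu and at 29.9 and 28.9 without, and fell by 1.10 on the log2 scale (SE 0.16, edgeR adjusted p = 0.0303). With Zn it was equally low, at 14.7 and 11.5 CPM. *Rny1* was at 19.7 and 29.0 CPM with Cu and at 41.7 and 48.5 without, and did not pass the test (-0.88, SE 0.18, adjusted p = 0.0906). *Rny3* was the 1 called of 17 tested structural RNAs (0.1% of all genes called lower).

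A list of 16 genes was selected here from those that the study names in connection with copper or *Brd9*. The study named them from samples of this series, so they are not independent evidence of a direction. Of these *Gsta4*, *Pgd*, *Txnrd1* and *Mt2* rose and *Islr* fell (0.174% of all genes called higher and 0.1% lower). DESeq2 called 8 of the 16 higher and 2 lower (0.955% and 0.89% of all genes it tested). *Wnt4*, a secreted ligand, was at 6.24 and 7.36 CPM with Cu and at 3.85 and 4.18 without (log2 fold change 0.77, SE 0.18, edgeR adjusted p = 0.153). *Klf4* stood at 0.25 (adjusted p = 0.279) and *Synpo2l* at -0.17 (adjusted p = 0.34).

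Cu was then set directly against Zn within the *Brd9* KD cells, since the comparisons of each metal with untreated cells share the untreated libraries. The test called 14 of 14978 genes (0.0935%). Of the 26 genes raised by Cu, 25 had both Cu libraries above both Zn libraries (23.7% of all genes), *Mt2* being the exception, and 14 of the 15 lowered genes had them below (23.9% of all genes), *Rny3* being the exception. These genes were selected on the same Cu libraries, so the shares of all genes are no fair yardstick for these counts. Of the raised genes, 4 were called higher than with Zn: *Prl2c3* by 2.05 on the log2 scale (SE 0.20, edgeR adjusted p = 0.0078), *Nid1* by 0.89 (SE 0.08, adjusted p = 0.00404), *Gpr137b* by 0.73 and *Txnrd1* by 0.50. *Ano5* (-1.11), *Igfbp5* (-0.82) and *Fndc1* (-0.76) were called lower than with Zn.

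Among the other genes called between the metals were a zinc importer and a zinc exporter. The zinc importer *Slc39a10* was at 49.7 and 42.8 CPM with Cu, at 48.2 and 47.4 without and at 20.6 and 18.9 with Zn, a difference between the metals of 1.22 on the log2 scale (SE 0.10, edgeR adjusted p = 0.00404). *Slc30a1* was lower with Cu than with Zn by -0.87 (SE 0.10, adjusted p = 0.0222). In both genes the Zn libraries stood apart and the Cu libraries overlapped the untreated ones. *Mt1*, *Mt2*, *Tagln* (0.72), *Kif21b* (-1.16) and *Notch3* (-0.73) made up the rest. Against untreated cells Zn gave 5 calls (0.0334%), *Mt1*, *Mt2*, *Slc30a1*, *Egr1* and *Slc39a10*, of which *Mt2* was also called with Cu. *Hmox1* was at 88.4 and 75.7 CPM with Zn, and its Cu and Zn levels did not differ by the test (0.18, adjusted p = 0.412). Without replicate 1 of Cu 1 gene was called between the metals.

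**Figure D4:**
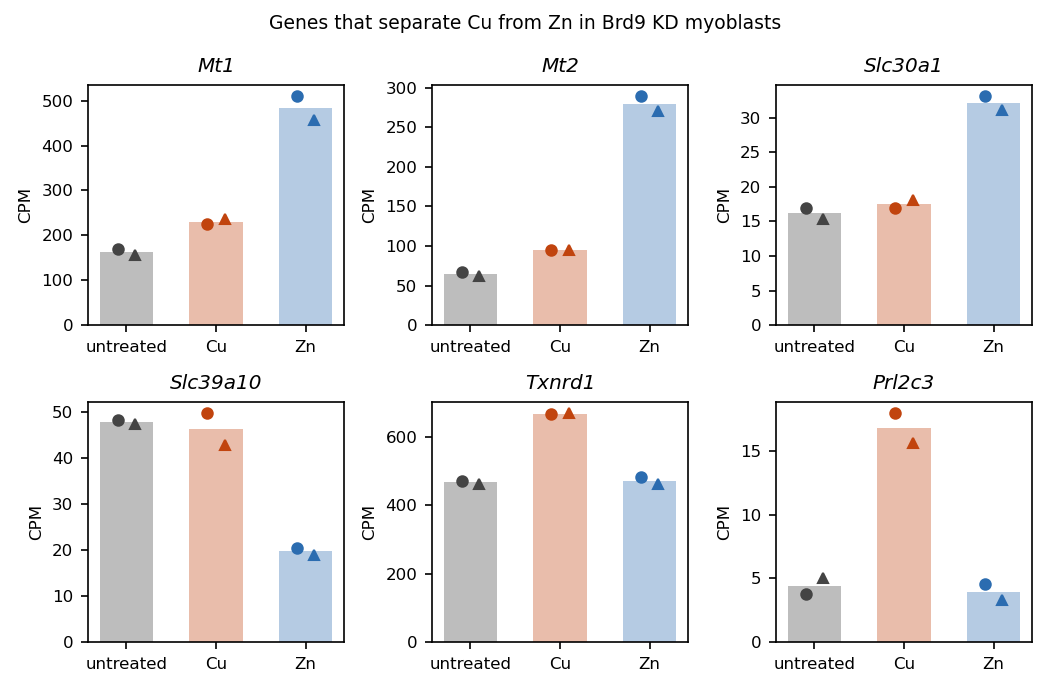
CPM (y axis, from 0) of 6 genes called between Cu and Zn in Brd9 KD cells. Bars are means of 2 libraries, circles replicate 1 and triangles replicate 2. Mt1, Mt2 and Slc30a1 are highest with Zn, Slc39a10 is lowest with Zn, and Txnrd1 and Prl2c3 are highest with Cu.

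The same 41 genes were followed in the other lines, each fitted on its own 6 libraries. In scr cells all 26 raised genes had log2 fold changes above 0 and 12 of the 15 lowered genes below 0, but *Gpr137b* (1.18, edgeR adjusted p = 0.0171) and *Islr* were the only ones called, where 0.00667% of all genes were called higher and 0.0267% lower. DESeq2 called 7 of the 26 and 3 of the 15 there, against 0.176% and 0.237% of all genes. In *Baf180* KD cells 19 of the 26 were called higher and 14 of the 15 lower, against 5.46% and 8.3% of all genes. In *Baf250a* KD cells 23 of the 26 were called higher and 5 of the 15 lower, against 0.626% and 0.646%. In *Baf180* KD and *Baf250a* KD cells alike 22 of the 41 were called in the same direction, a count without its own share over all genes. DESeq2 called 11 and 1 in *Baf250a* KD cells, against 0.181% and 0.108%.

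**Figure D5:**
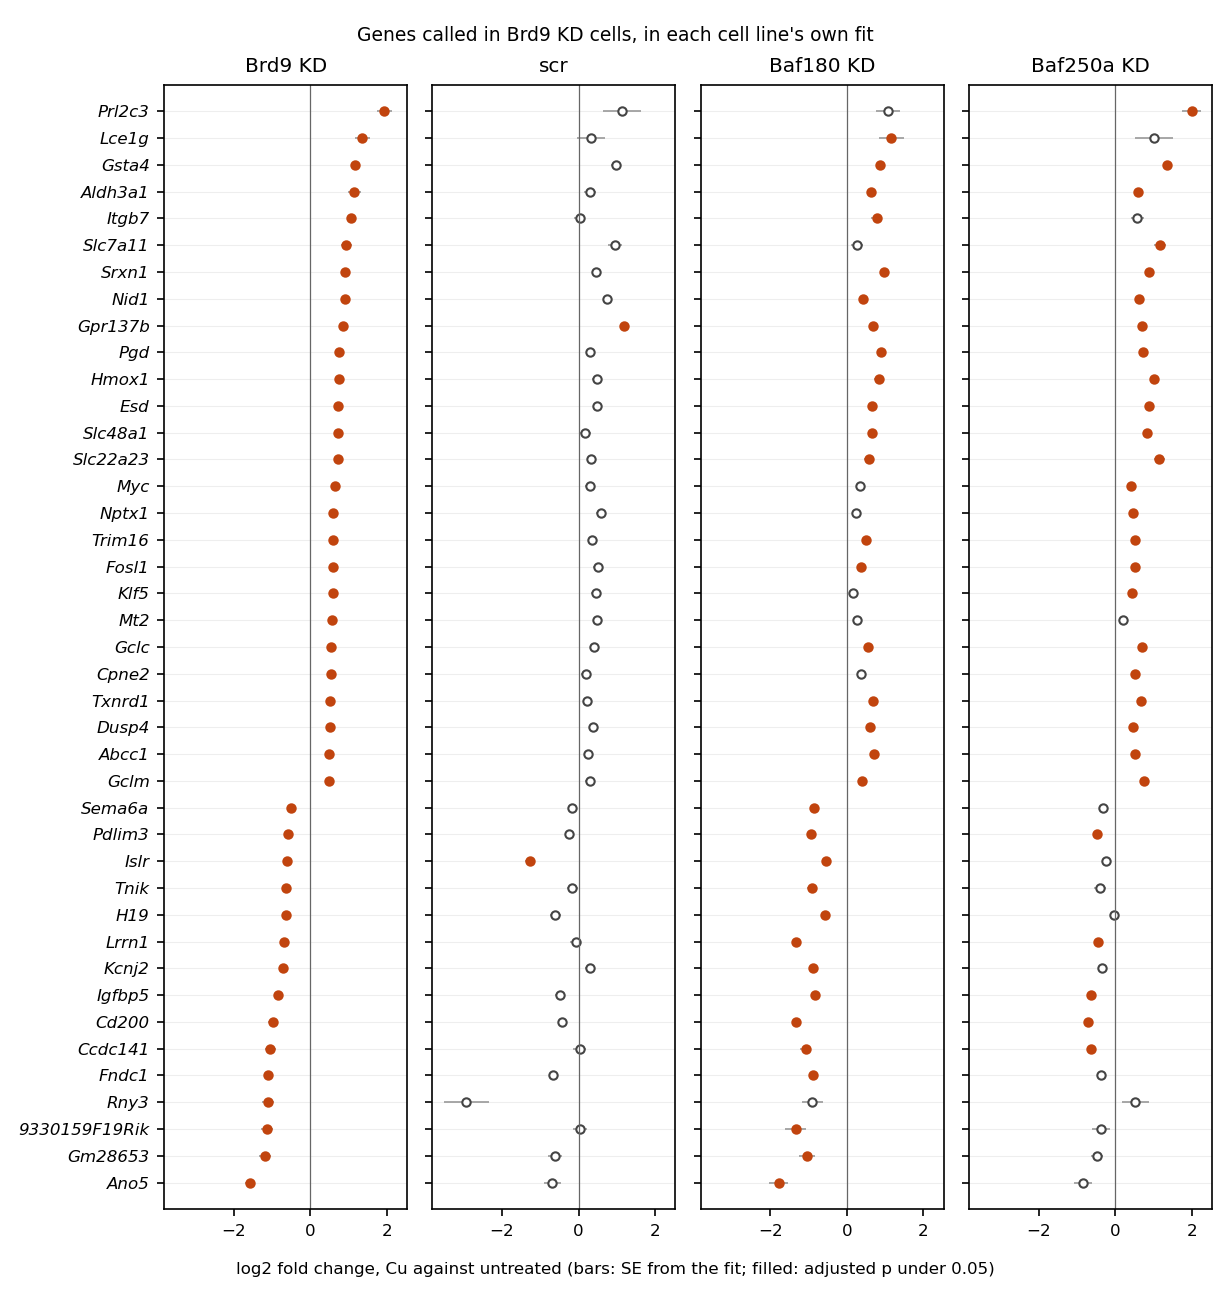
Log2 fold change of Cu against untreated (x axis) for the 41 genes called in Brd9 KD cells, in each line's own fit. Bars are the SE from the fit and filled points are called. Filled points number 41 in Brd9 KD, 2 in scr, 33 in Baf180 KD and 28 in Baf250a KD cells.

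Whether the responses differ was tested on all 24 libraries as a difference between log2 fold changes. Against *Baf180* KD and *Baf250a* KD cells no gene was called by edgeR or DESeq2 (0% in each), and 699 and 556 of 16524 genes had an unadjusted p under 0.05 (4.23% and 3.36%). The response of *Gsta4* was 1.17 in *Brd9* KD, 0.88 in *Baf180* KD and 1.36 in *Baf250a* KD cells, and that of *Srxn1* 0.91, 0.96 and 0.88. *Slc7a11* stood at 0.95 in *Brd9* KD and 1.17 in *Baf250a* KD cells and at 0.27 (adjusted p = 0.259) in *Baf180* KD cells, with a difference from *Brd9* KD of 0.69 (adjusted p = 0.987). *H19* was at -0.64 in *Brd9* KD, -0.58 in *Baf180* KD and -0.03 in *Baf250a* KD cells, with a difference of -0.56 from the last (adjusted p = 0.994). A difference that misses the threshold does not show that the lines respond alike.

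Against scr cells 6 of 16524 genes were called (0.0363%; 2759, or 16.7%, at an unadjusted p under 0.05; 28, or 0.201%, by DESeq2). Of the 41 genes *Kcnj2* was the 1 called, with a difference of -0.93 (SE 0.16, edgeR adjusted p = 0.0398). On the scale of all 24 libraries it was at 28.3 and 26.1 CPM with Cu and 40.2 and 43.3 without in *Brd9* KD cells, and at 11.1 and 11.3 with Cu and 9.14 and 8.91 without in scr cells. Copper and untreated libraries were thus in opposite order in the 2 lines, and with the GC and length offset the difference was -0.47 (adjusted p = 0.447). Of 33 NRF2 targets edgeR called none in scr cells (median log2 fold change 0.15, 25 above 0), where 0.00667% of all genes were called higher. It called 24 higher in *Baf180* KD (median 0.50, against 5.46% of all genes) and 18 in *Baf250a* KD cells (median 0.52, against 0.626%). DESeq2 called *Slc7a11*, *Nqo1* and *Srxn1* higher in scr cells, 3 of the 33 (0.176% of all genes), 27 in *Baf180* KD (9.84%) and 11 in *Baf250a* KD cells (0.181%). The difference from scr over the 33 had a median of 0.35, against 0.07 over all genes, with no gene called and a smallest edgeR adjusted p of 0.183. Medians of other lists lay on both sides of it, so the shift was not particular to NRF2 targets. They were 0.40 for the ATF4 list and 0.36 for pentose phosphate and NADPH genes, lists that share genes with the NRF2 list. Replication-dependent histones stood at 0.55, nuclear genes of oxidative phosphorylation at 0.35 and heat shock chaperones at 0.05.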

How the data were processed

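RNA was sequenced from 24 C2C12 libraries after RNase H removal of ribosomal RNA. The authors aligned strand-specific read pairs to mm10 with STAR, kept unique mappers and counted pairs per gene with featureCounts. The counts they deposited are whole numbers for 55291 symbols, not normalized. Their DESeq2 tables of fold changes and p-values were not used. Near-identical genes are uncertain because only unique reads count.

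The 6 *Brd9* KD libraries were fitted together with edgeR 4.0.16's quasi-likelihood test (R 4.3.3, TMM, filterByExpr), calling genes at a Benjamini-Hochberg adjusted p under 0.05 over all genes. The other lines were fitted likewise, and differences between responses on all 24 libraries. Alternatives included DESeq2 1.42.0, other filters and library sets, a replicate block, and a spline offset (5 degrees of freedom) for GC content and length. Total counts per library, from 12719173 to 28759670 in *Brd9* KD cells, set the precision. Steps were tested on simulated counts of 14978 genes, 200 of them changed with Cu. At a log2 change of 0.5 the test called 35% of the changed genes and 10 unchanged ones. At a log2 change of 1 it called 68.5% and 16 unchanged ones. With 2 replicates per group, spread is poorly known. The samples, gene lists and tests were chosen with earlier results of these data known. Named are all genes called, called or most abundant list members, genes the study names and genes called between responses. Near-threshold list members, *Lars2*, *Prl2c2*, *Prl2c5*, *Gm2423* and *Gpr137b-ps* were named after their values were seen. Promoter sequences are RefSeq's for GRCm38.p6, and coordinates are GENCODE M21's. The result for 1 gene is not reported here.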

Additional observations from a re-analysis of the deposited data

Results flagged for a closer look

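In 6 genes the copper response differed between *Brd9* KD and scr cells (edgeR, adjusted p under 0.05), as differences in log2 fold change on the scale of all 24 libraries. *Ifih1*, a cytosolic sensor of double-stranded RNA, differed by -1.76 (SE 0.30, adjusted p = 0.0398). It was at 1.21 and 1.51 CPM with Cu and 4.19 and 3.27 without in *Brd9* KD cells, and at 9.18 and 10.9 with Cu and 9.57 and 6.96 without in scr cells, where the groups overlapped. *Kcnj2* differed by -0.93, as described above. The other 4 genes were each highest in replicate 1 of Cu among the *Brd9* KD libraries: *CT010467.1* (6.74), *Lars2* (7.70), *Mir6236* (10.16) and *Gm15564* (11.36). *CT010467.1* was at 11092 and 1497 CPM in the Cu libraries of *Brd9* KD cells and at 47278 and 16899 in the untreated libraries of scr cells, against 1468 and 1792 in the Cu libraries of scr cells. The untreated scr libraries were also high in *Lars2* (1359 and 638 CPM, against 34.6 and 30.1 with Cu), *Mir6236* (64.3 and 57.9, against 0.70 and 0.25) and *Gm15564* (121 and 66.5, against 0.76 and 0.18). None of the 6 was called without replicate 1 of Cu in *Brd9* KD cells or with the GC and length offset.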

How the results depend on the processing

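Genes called with Cu in *Brd9* KD cells numbered 41, and 197 by DESeq2, 1060 (314 higher, 746 lower) for every gene with 1 count or more, 78 for genes of mean normalized count 1 or more, 116 with the GC and length offset, 106 with the offset and the replicate block, 0 with a minimum fold change of 1.5, 77 on the 4 libraries compared and 98 on all 24. Leaving out a library gave 0 to 115, with 0 without Cu replicate 1, 10 without Cu replicate 2 or either untreated replicate, 98 without Zn replicate 1 and 115 without Zn replicate 2, each leaving a lone sample assumed to vary like the other groups. Replicate numbers did not pair the Cu libraries with the others: deviations of same-numbered libraries correlated at -0.116 (Cu and untreated) and -0.067 (Cu and Zn). Between untreated and Zn the correlation was 0.287. The replicate block gave 37 genes, 32 of them among the 41. A crossed pairing, chosen after seeing the data, gave 1923. RLE size factors gave 39 and thinned counts 42. None of the 41 changed direction, which their selection largely fixes where a library is left out. Between Cu and Zn, 14 genes were called, and 143 by DESeq2, 883 with at least 1 count, 30 with a mean of at least 1, 105 with the offset, 90 with offset and block, 1 with the minimum fold change, 94 on 24 libraries and 1 to 28 leaving out a library (1 without Cu replicate 1, 7 without Zn replicate 2, 27 and 28 without an untreated replicate). Against scr, 6 genes were called, and 28 by DESeq2, 1 with RLE size factors, 983 with at least 1 count, 11 with the block, 0 with the offset, the minimum fold change or only 12 libraries, 2 without the *Baf250a* KD Zn library of 495778 counts, and 0 to 625 leaving out a library (625 without scr Cu replicate 1, 307 without scr untreated replicate 1). Against *Baf180* KD, 0 became 25 with at least 1 count, and against *Baf250a* KD 22, with 0 to 1 leaving out a library. *Slc31a1* alone changed sign, ranging from -0.049 (without untreated replicate 2) and -0.017 (without Cu replicate 2) to 0.083 when a library was left out. The causes of these shifts were not tested. Genes of a few counts are limited by depth.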

Other observations

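No gene of DNA replication, a group transcribed ahead of and during S phase, was called with Cu in *Brd9* KD cells. Of 43 tested, both Cu libraries were above both untreated ones in 33 and below in 1 (25.8% and 26.7% over all genes), with a median log2 fold change of 0.16. Neither edgeR nor DESeq2 called a member, and 14 had an unadjusted p under 0.05 (16.2% of all genes). *Mcm2*, a subunit of the replicative helicase, was at 247 and 251 CPM with Cu and 215 and 219 without (0.20, SE 0.08, edgeR adjusted p = 0.283). The groups did not overlap. Of 57 tested replication-dependent histone genes 28 were above and none below, with a median of 0.25, and 22 had an unadjusted p under 0.05. The median rested on the library, at 0.10 with 15 genes below 0 without replicate 2 of Cu and at 0.37 without replicate 1. Histone genes share near-identical sequence, so their counts are uncertain, and edgeR called none and DESeq2 3 higher (0.955% of all genes it tested). Of the 48 genes of G2 and mitosis 14 were above and 16 below, with a median of -0.02, and 8 had an unadjusted p under 0.05, all of them lower.

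Of 19 tested interferon-stimulated genes 11 had both Cu libraries below both untreated ones and 1 above (26.7% and 25.8% over all genes), with a median of -0.25, and 6 had an unadjusted p under 0.05 (16.2% of all genes). Neither edgeR nor DESeq2 called one. Of 21 tested collagen genes 12 were below and 3 above, against the same shares, with a median of -0.24, or -0.14 without replicate 1 of Cu. An unadjusted p under 0.05 was found for 12, of which edgeR called none and DESeq2 1 in each direction (0.955% of all genes it tested higher and 0.89% lower). *Col4a1*, a chain of basement membrane collagen, stood on the other side at 0.34 (SE 0.07, adjusted p = 0.111 by edgeR and 0.0121 by DESeq2). Transcripts of the mitochondrial genome had a median of -0.17 over 12 genes, which was -0.06 without replicate 2 of Cu and turned to 0.18 with the GC and length offset. No subunit of the SWI/SNF complexes was called by either tool, among 4 tested genes of the ncBAF list, 8 PBAF and BAF and 16 shared subunits. That ncBAF list included *Brd7*, which the study counts as a PBAF subunit.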
